A study of Bos indicus and Bos taurus with 17 samples.

Results

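The hypoxia and VEGF pathway genes described here were 10 genes set by name: the hypoxia-inducible factor subunits HIF1A, ARNT and EPAS1, the oxygen sensors EGLN1 and EGLN3 with the ubiquitin ligase component VHL, the vascular endothelial growth factors VEGFA and VEGFB, and the HIF target genes BNIP3 and DDIT4. Entries were found for 9 of the 10 among 21631 distinct names, and 8 of them had an entry of their own. EGLN1 was not analysed here, because no entry carried this name. ARNT was present only in an entry that joins it with CTSK and CTSS. In the RefSeq annotation of a Bos indicus assembly these are neighbours on chromosome 3, with a pseudogene between CTSK and CTSS. The value of that entry cannot be assigned to ARNT alone.

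Libraries were made from cells of the milk of Jersey (Bos taurus) and Kashmiri (Bos indicus in the labels) cows, sampled 15, 90 and 250 days into lactation (D15, D90, D250). The labels name 17 samples (3 per group, but 2 in the Jersey D90 group), from cows in lactation 2 or 3, and name no treatment. Lactation number was uneven: the Jersey D250 and Kashmiri D90 samples were all from lactation 2, while each other group held both. The paper instead gives lactation 3 for all cows. It also describes 3 cows per breed, each sampled on D15, D90 and D250, where the labels name 2 samples for Jersey at D90. With 1 value per group, this pairing of stages by cow could not be used. The part of lactation number in the differences was not tested. Epithelial cells were enriched from milk with beads carrying an antibody to the keratin KRT18. Each stage was sampled in a single month (March, July or December), so stage and season cannot be told apart, and both breeds were aligned to a Bos taurus assembly, so breed and distance from that assembly cannot be told apart either. The values were the authors' FPKM, a fragment number scaled to transcript length and library size, with 1 value for each of the 6 groups. They carry no replicate, so no error, interval or test could be given, and the number of reads behind each gene's value is unknown. Below, 3 values in a row are in the order D15, D90, D250. As a check of the labelled cell type, KRT18 measured 51.3, 9.13 and 11.5 FPKM in the Kashmiri groups and 33.7, 1.59 and 4.51 FPKM in the Jersey groups. The milk protein genes gave no such check. Of the 5 with an entry, 4 were listed at 0 in each group but Jersey at D90, where 0 were. LALBA had 12933 FPKM in Kashmiri at D90. An exact 0 in such a table can be a failed estimate. The paper instead describes the casein and whey protein genes as among the most abundant at every stage in both breeds. The milk protein values used here differ from that description, and the reason was not tested.

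HIF is a transcription factor made of an oxygen-regulated alpha subunit and a constitutive beta subunit. When oxygen is available, EGLN prolyl hydroxylases modify the alpha subunit, VHL recognises the modified protein, and the proteasome degrades it. When oxygen is low the alpha subunit persists, pairs with ARNT and induces genes for angiogenesis, glycolysis and mitophagy. In immune cells the gene of the alpha subunit is also induced by inflammatory signals. These steps act largely on protein stability, which mRNA levels do not measure.

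HIF1A, the alpha subunit found in most cells, measured 9.72, 18.6 and 35.6 FPKM in the Kashmiri groups. The Jersey groups had 20.3, 159 and 328 FPKM. Its level was higher at each later day in both breeds, and the Jersey value was the higher one on each day. The Jersey level was 2.09-fold (D15), 8.54-fold (D90) and 9.22-fold (D250) that of Kashmiri. A further entry named HIF1A had from 0.0535 FPKM (Kashmiri, D15) to 24.4 FPKM (Jersey, D250), at most 7.44% of the entry described here.

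EPAS1 encodes HIF-2 alpha, the other widely studied alpha subunit, and its breeds stood in the reverse order. The Kashmiri groups had 4.89, 9.04 and 10.5 FPKM. The Jersey groups had 2.76, 2.64 and 7.91 FPKM, lower on each day by 1.77-fold, 3.42-fold and 1.33-fold. The ratio of HIF1A to EPAS1 within a group does not depend on how groups were scaled to each other. This ratio was 1.99, 2.06 and 3.38 for Kashmiri and 7.36, 60.1 and 41.5 for Jersey.

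The entry that joins ARNT, CTSK and CTSS measured 40.3, 238 and 221 FPKM in the Kashmiri groups and 449, 1292 and 653 FPKM in the Jersey groups. ARNT encodes the beta subunit of HIF, while CTSK and CTSS encode the lysosomal proteases cathepsin K and cathepsin S, the latter abundant in antigen-presenting cells. The share of ARNT in these values was not measured. Where this entry was among those counted at the main limit, the count is given below without it too.

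EGLN3 encodes a prolyl hydroxylase of the HIF alpha subunits and is itself a HIF target. It measured 6.60, 12.5 and 9.17 FPKM in the Kashmiri groups, and 15.5, 43.6 and 127 FPKM in the Jersey groups. The Jersey level was thus 2.36-fold, 3.49-fold and 13.8-fold that of Kashmiri. VHL, the substrate receptor of the ligase, had the narrowest range of the 8 genes, with 10.1, 9.40 and 9.18 FPKM for Kashmiri and 6.53, 6.16 and 6.75 FPKM for Jersey. Its highest value was 1.63 times its lowest. EGLN3 over VHL within a group was 0.656, 1.33 and 0.999 for Kashmiri, and 2.38, 7.09 and 18.7 for Jersey.

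VEGFA, the main angiogenic ligand of this family and a classical HIF target, had the widest range. Its Kashmiri values of 9.98, 7.25 and 10.8 FPKM lay close together. Its Jersey values were 37.2, 331 and 655 FPKM, each above all Kashmiri values. The breeds differed 3.73-fold, 45.6-fold and 60.4-fold.

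VEGFB, a ligand of the receptor FLT1 that has been linked to lipid uptake more than to vessel growth, took another course. The Kashmiri groups had 16.6, 23.8 and 23.0 FPKM. The Jersey groups had 48.1, 37.9 and 16.1 FPKM, highest at D15 and lowest at D250. Jersey was therefore 2.90-fold and 1.59-fold above Kashmiri on the first pair of days, and 1.43-fold below it at D250. VEGFA over VEGFB within a group was 0.602, 0.305 and 0.472 for Kashmiri, where VEGFB was the more abundant ligand throughout. For Jersey it was 0.773, 8.73 and 40.7.

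BNIP3, which encodes a mitochondrial outer membrane protein that promotes mitophagy, measured 19.6, 42.7 and 46.8 FPKM in the Kashmiri groups. The Jersey groups had 86.8, 258 and 263 FPKM, which was 4.44-fold, 6.05-fold and 5.62-fold higher. Most of the stage difference lay before D90 in both breeds: the D90 level was 2.18 times the D15 level for Kashmiri and 2.98 times for Jersey, and the D250 level was 1.10 and 1.02 times the D90 level.

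DDIT4 encodes REDD1, an inhibitor of mTORC1 that is induced by low oxygen, by glucocorticoids and by other stresses. It had the highest FPKM of the 8 genes in every group. Its Kashmiri values were 58.3, 52.1 and 59.3 FPKM, and its Jersey values 453, 941 and 3376 FPKM. The breeds differed 7.78-fold, 18.1-fold and 56.9-fold. At D250 in Jersey, DDIT4 was above 99.9% of the names with more than 0.01 FPKM.

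**Figure D1:**
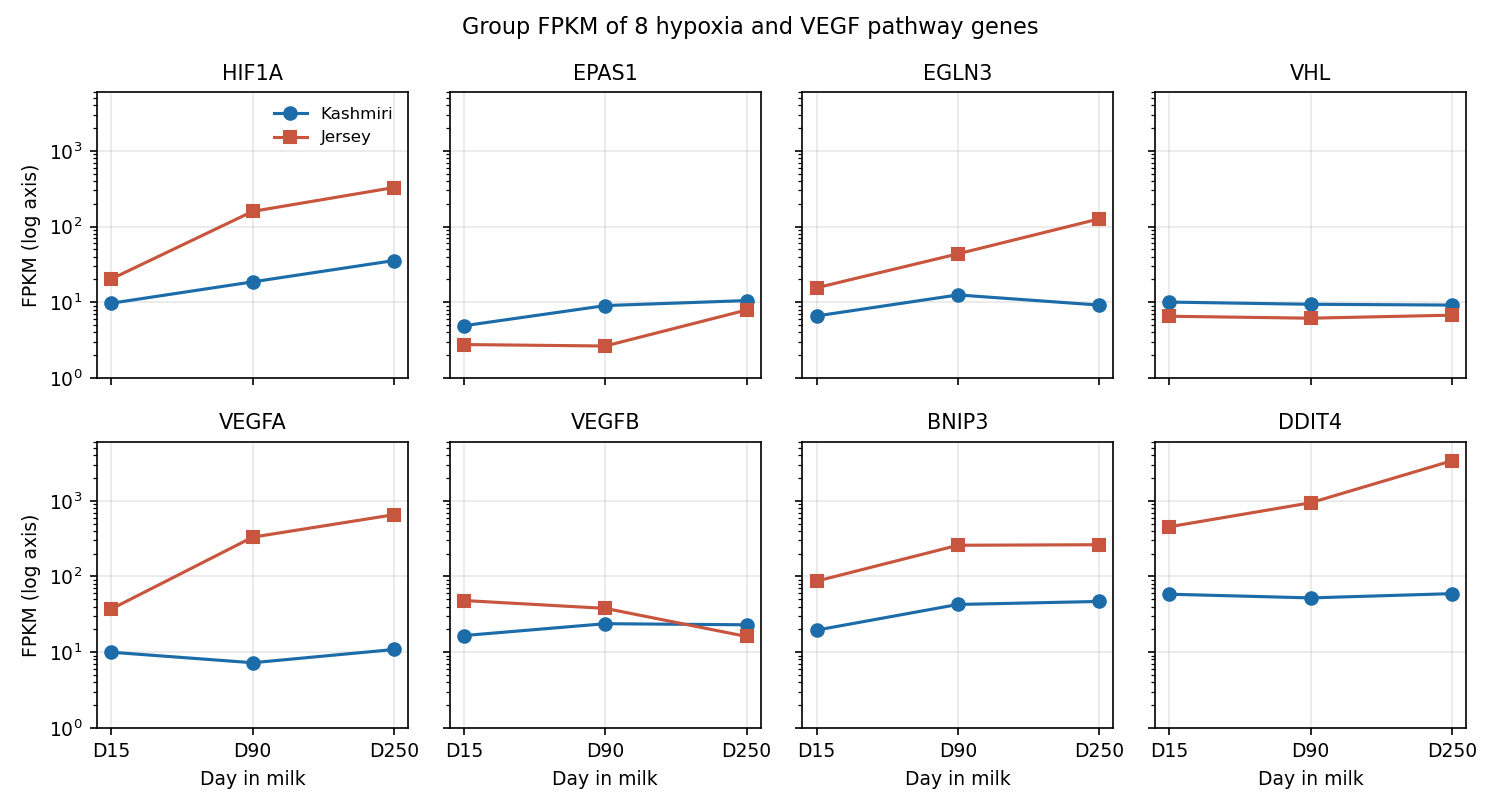
FPKM (log axis) of the 8 genes with an entry of their own by day in milk (evenly spaced), with circles for Kashmiri and squares for Jersey cattle and 1 authors' value per point. VEGFA is between 7.25 and 10.8 FPKM in Kashmiri cattle and reaches 655 FPKM in Jersey cattle, while VHL stays between 6.16 and 10.1 FPKM.

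**Figure D2:**
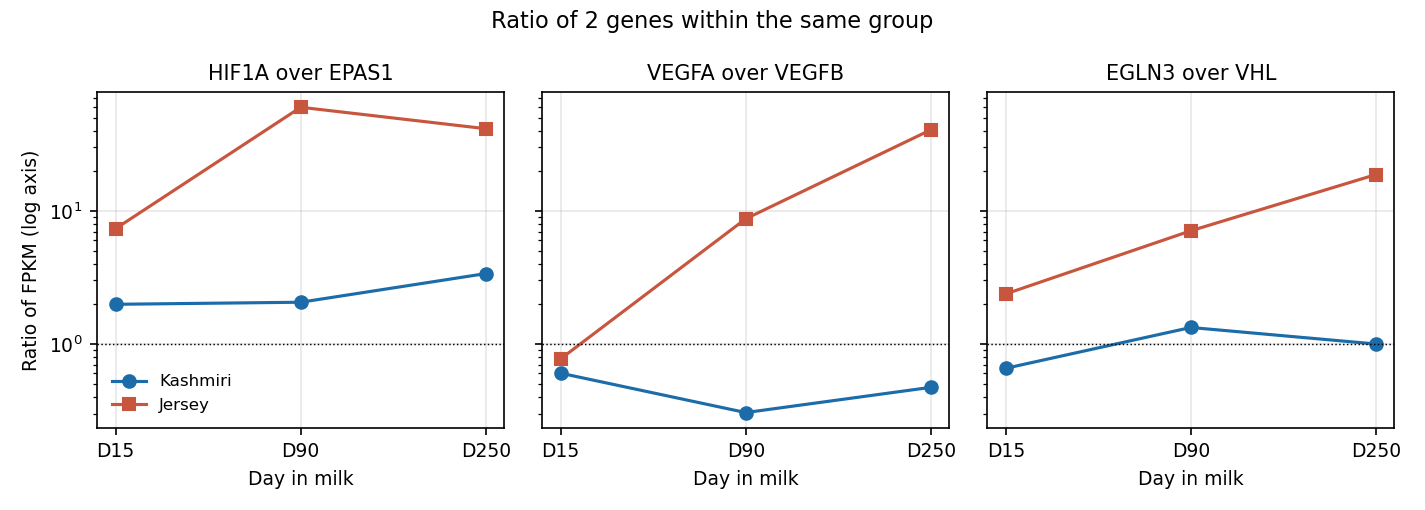
Ratio of the FPKM of 2 genes within the same group (log axis) by day in milk, for HIF1A over EPAS1, VEGFA over VEGFB and EGLN3 over VHL, with the dotted line at equal levels. The Jersey ratios (squares) are above the Kashmiri ratios (circles) on each day, and VEGFA over VEGFB goes from 0.773 to 40.7 in Jersey cattle.

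To set the genes beside the rest of the table, a log2 ratio was taken with a pseudocount of 1 FPKM, and a gene with at least 1 FPKM in either group was counted when this ratio was at least 2 in size. All 9 entries had at least 1 FPKM in all 6 groups, so none was left out. The breed comparison held the largest differences. At D250, 5 of the 9 entries were counted, all higher in Jersey, where 12.3% of all genes considered were counted and 10.9% were counted as higher. They were DDIT4 (log2 ratio 5.81), VEGFA (5.79), EGLN3 (3.65), HIF1A (3.17) and BNIP3 (2.46). At D90, 5 of 9 were counted, again all higher in Jersey, against 11.7% of all genes and 6.58% higher. These were VEGFA (log2 ratio 5.33), DDIT4 (4.15), HIF1A (3.03), BNIP3 (2.57) and the joined ARNT entry (2.44), and the count was 4 of 8 without the joined entry. At D15, 3 of 9 were counted, all higher, against 8.57% of all genes and 6.45% higher. These were the joined ARNT entry (log2 ratio 3.45), DDIT4 (2.94) and BNIP3, and the count was 2 of 8 without the joined entry. BNIP3 was close to the limit: with FPKM rescaled by the upper quartile its log2 ratio was 1.98 at D15 and 1.97 at D250, and with FPKM rescaled to the sum without the milk protein genes it was 1.70 at D250. On the other side of the limit, the rescaling to the sum gave VEGFA at D15 a log2 ratio of 2.15 and EGLN3 at D90 one of 2.05. The summed FPKM of all entries at D250 was 533249 in Kashmiri and 900667 in Jersey. With the rescaling to the sum, the log2 ratios at D250 were lower, at 5.04 (DDIT4), 5.06 (VEGFA), 2.93 (EGLN3) and 2.41 (HIF1A), all still past the limit.

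The median log2 ratio of the 9 entries between the breeds was 1.48, 2.44 and 2.46, beside -0.13, -0.03 and -0.10 for all genes considered. Without the joined ARNT entry the median was 1.30, 2.15 and 2.82. Of all genes considered, 0.401% had a log2 ratio at least as high as VEGFA at D90, and 0.558% at least as high as DDIT4 at D250. EPAS1 and VHL were the 2 entries with a negative log2 ratio on every day, from -1.46 (EPAS1, D90) to -0.37 (EPAS1, D250), none past the limit, and their sign was the same with either rescaling. Summed neutrophil markers stood 25.4-fold, 11.4-fold and 22.1-fold higher in Jersey on the same days, and summed macrophage markers 8.07-fold, 4.92-fold and 5.80-fold. Without an entry that joins ADGRE1 with VAV1 and an unnamed gene, the macrophage fold at D250 was 3.996. Of the 8 macrophage markers considered at D250, 6 were higher and 2 lower in Jersey. The epithelial sum was 2.20-fold, 7.08-fold and 1.88-fold lower in Jersey. Summed T and NK cell markers were 1.35-fold, 8.92-fold and 3.70-fold lower in Jersey, and B cell markers were 1.61-fold higher at D15 and 5.97-fold and 3.38-fold lower on the later days. Their part in these differences was not tested. In such bulk samples, fewer cells of a type and less RNA per cell cannot be told apart.

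**Figure D3:**
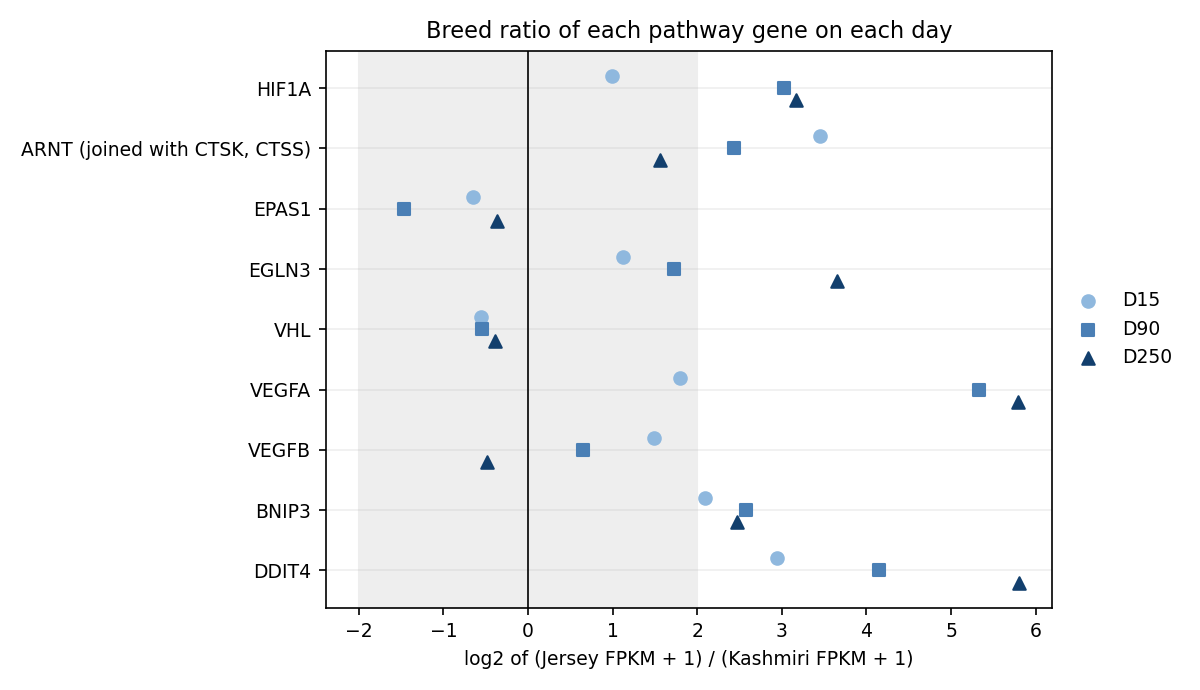
Log2 ratio of Jersey over Kashmiri FPKM (pseudocount 1) for the 9 entries, with a symbol for each day and the band within the limit of 2 in grey. VEGFA and DDIT4 lie farthest to the right at D250, with 5.79 and 5.81, and EPAS1 and VHL are left of 0 on all days.

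The stage comparisons within a breed share groups with each other, and their values are given side by side. For Jersey from D15 to D90, HIF1A (log2 ratio 2.90) and VEGFA (3.12) were counted, 2 of 9, both higher at D90, against 6.76% of all genes and 2.98% higher. From D90 to D250 0 of 9 were counted, against 4.18% of all genes and 3.72% higher. DDIT4 had a log2 ratio of 1.84 there, EGLN3 one of 1.51 and EPAS1 one of 1.29. From D15 to D250, VEGFA (log2 ratio 4.10), HIF1A (3.95), EGLN3 (2.95) and DDIT4 (2.89) were counted, 4 of 9, all higher at D250, against 12.6% of all genes and 9.17% higher. The median log2 ratio of the 9 entries was 1.43, 0.98 and 1.59 in these comparisons, beside -0.07, 0.15 and 0.07 for all genes considered. VEGFB was the lowest entry from D15 to D250, with a log2 ratio of -1.52.

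For Kashmiri, the joined ARNT entry was the only entry counted. Its log2 ratio was 2.53 from D15 to D90, where 7.50% of all genes were counted and 2.34% as higher. From D15 to D250 its log2 ratio was 2.42, where 4.05% of all genes were counted and 1.85% as higher. From D90 to D250 0 of 9 entries were counted, against 1.98% of all genes and 0.859% higher. Without the joined entry 0 of 8 were counted in each of the 3 comparisons. Of the 8, HIF1A had the largest log2 ratio, 1.77 from D15 to D250, and it passed the limit when FPKM was rescaled, with 2.03 by the upper quartile and 2.72 to the sum. BNIP3 had a log2 ratio of 1.22 there, and 2.19 with the rescaling to the sum. VEGFA and DDIT4 had log2 ratios of 0.11 and 0.02 from D15 to D250, and of 1.03 and 1.02 with the rescaling to the sum, so that their level course in Kashmiri depends on the scaling.

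With a limit of 1 in place of 2, in either direction, the counts of the 9 entries between the breeds were 6, 7 and 6, against 28.9%, 32.9% and 34.5% of all genes. For Jersey they were 6 (D15 to D90), 5 (D90 to D250) and 7 (D15 to D250), against 29.8%, 20.9% and 42.4%. For Kashmiri they were 2, 0 and 3 in the same order, against 33.5%, 17.7% and 25.7%.

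Other genes of the pathway were taken from 3 lists. Their counts stand beside the same shares of all genes as above, 8.57%, 11.7% and 12.3% between the breeds, 6.76% (D15 to D90), 4.18% (D90 to D250) and 12.6% (D15 to D250) for Jersey, and 7.50%, 1.98% and 4.05% for Kashmiri. In lists this short the count of a few genes is a coarse measure. Among 14 other HIF subunits and regulators, 9 had an entry. HIF3A, which encodes another alpha subunit, had at most 0.0163 FPKM and was listed at 0 in Jersey at D90. HIF1AN, the asparaginyl hydroxylase that limits HIF transactivation, lay between 6.94 FPKM (Kashmiri, D90) and 15.6 FPKM (Jersey, D250). At D15 and D90, 0 of the 8 regulators considered were counted between the breeds. At D250, 2 of 7 were, both encoding coactivators that HIF recruits. CREBBP had 8.81 FPKM in Kashmiri and 60.0 FPKM in Jersey (log2 ratio 2.64). The entry that joins EP300 with a microRNA had 9.94 and 62.0 FPKM (log2 ratio 2.53). In Jersey both were also counted from D15 to D250, with log2 ratios of 2.99 (CREBBP) and 3.36 (EP300), and CREBBP from D15 to D90 (2.08). The median log2 ratio of the regulators between the breeds was -0.24, 0.53 and 0.50.

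The signalling receptors of VEGF were low. KDR, the main receptor of VEGFA on endothelium, had at most 0.0809 FPKM in any group. FLT4, the receptor of VEGFC, had at most 0.225 FPKM. FLT1, which binds VEGFA, VEGFB and placental growth factor, had from 0.111 to 0.363 FPKM in all groups but Jersey at D90 (5.26 FPKM) and Jersey at D250 (2.47 FPKM). The co-receptor genes were higher. NRP2 measured 2.98, 16.2 and 33.8 FPKM for Kashmiri and 19.0, 87.0 and 45.0 FPKM for Jersey. Of its 2 entries, these values are from the one with the higher mean. NRP1 measured 0.314, 1.12 and 2.96 FPKM for Kashmiri and 4.09, 8.49 and 9.43 FPKM for Jersey. Between the breeds NRP2 was counted at D15, 1 of 2 considered (log2 ratio 2.33). At D90, FLT1 (log2 ratio 2.37), NRP2 (2.36) and NRP1 (2.16) were counted, 3 of 4, and at D250 0 of 4 were. By stage, NRP2 was counted from D15 to D90 in Kashmiri (log2 ratio 2.11) and Jersey (2.14), and from D15 to D250 in Kashmiri (3.13), and FLT1 from D15 to D90 in Jersey (2.20). Of the other ligands, VEGFC reached 4.04 FPKM in Jersey at D250, VEGFD had at most 0.0188 FPKM and PGF at most 0.224 FPKM.

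Of 29 other HIF target genes, 27 had an entry. Between the breeds, 10 of 25 considered were counted at D15 (8.57% of all genes), 12 of 26 at D90 (11.7%) and 10 of 26 at D250 (12.3%). All were higher in Jersey except FAM162A at D90, a mitochondrial protein gene with 562 FPKM in Kashmiri and 71.3 FPKM in Jersey (log2 ratio -2.96). The median log2 ratio of the list was 0.80, 1.58 and 1.66. The median at D15 lay at the edge of a gap in the list, from BNIP3L (0.80) to P4HA1 (1.85), so that 1 gene more or less would move it. The limit was passed on all 3 days by 4 targets, namely ANKRD37, LDHA, PGK1 and ERO1A. ANKRD37, an ankyrin repeat gene that HIF induces, measured 2.51, 4.09 and 4.88 FPKM for Kashmiri and 47.3, 77.5 and 90.1 FPKM for Jersey. LDHA, whose enzyme converts pyruvate to lactate, measured 24.2, 134 and 124 FPKM for Kashmiri and 242, 976 and 1002 FPKM for Jersey. ERO1A, which encodes an oxidase of protein folding in the endoplasmic reticulum, measured 1.64, 4.28 and 7.37 FPKM for Kashmiri and 12.5, 44.0 and 40.8 FPKM for Jersey. At D250, the largest log2 ratios were those of BHLHE40 (4.35), a gene for a transcriptional repressor, ANKRD37 (3.95), LDHA (3.00) and the entry that joins PFKFB3, a gene for a regulator of glycolysis, with RBM17 (2.99). At D90, ANKRD37 (log2 ratio 3.95), ERO1A (3.09) and LDHA (2.86) were the largest beside FAM162A. At D15, ANKRD37 (log2 ratio 3.78), LDHA (3.27), the haem-degrading enzyme gene HMOX1 (3.21) and ADM (2.61), the gene of the peptide adrenomedullin, led the list.

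Some targets did not follow this order. Of those considered, 6 of 25 (D15), 2 of 26 (D90) and 5 of 26 (D250) were lower in Jersey. Of all genes, 6347 of 11202, 5775 of 11209 and 6269 of 11642 were. FAM162A was lower in Jersey on each day, with 158, 562 and 162 FPKM for Kashmiri and 53.2, 71.3 and 49.6 FPKM for Jersey. PFKFB4 was lower in Jersey at D15 (17.6 FPKM, 47.2 FPKM in Kashmiri) but higher on the later days. CA9, a membrane carbonic anhydrase gene widely used as a hypoxia marker, had from 2.01 to 2.63 FPKM in every group but Kashmiri at D15, which had 6.92 FPKM. LOX, a lysyl oxidase gene, was listed at 0 on all days in Jersey and had at most 0.0459 FPKM in Kashmiri.

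**Figure D4:**
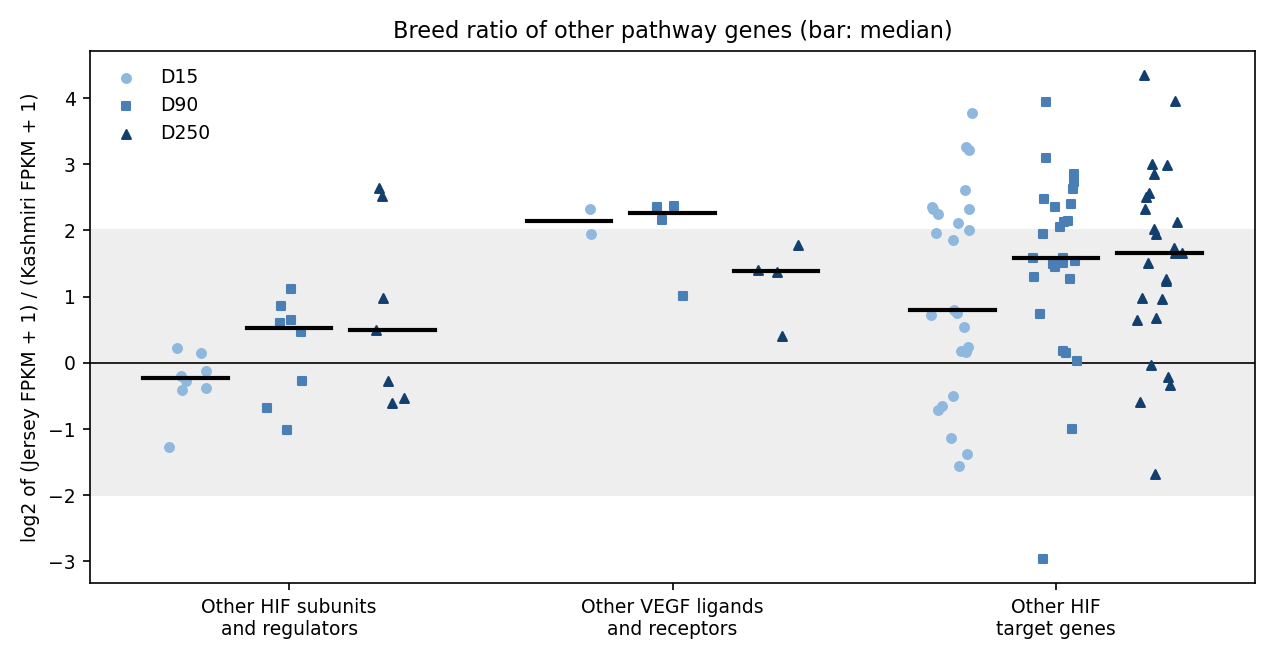
Log2 ratio of Jersey over Kashmiri FPKM (pseudocount 1) for the other pathway genes with at least 1 FPKM in either breed, with a symbol for each day, a bar at the median and the band within the limit of 2 in grey. The HIF target genes have medians of 0.80, 1.58 and 1.66 and spread from -2.96 to 4.35.

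By stage in Jersey, 3 of 25 targets considered were counted from D15 to D90 (6.76% of all genes), all higher at D90: P4HA1 (log2 ratio 2.16), a collagen prolyl hydroxylase subunit gene, the entry that joins TFRC, the transferrin receptor gene, with ZDHHC19 (2.02), and LDHA (2.01). From D15 to D250, 5 of 26 were higher and 1 lower at D250 (12.6% of all genes in either direction). BHLHE40 had the largest log2 ratio (3.66), followed by KDM3A (2.53), a histone demethylase gene, and P4HA1 (2.46), while ANGPTL4, whose product inhibits lipoprotein lipase, was the lower one (-2.43). From D90 to D250, BHLHE40 was higher (2.26) and ANGPTL4 lower (-2.12). In Kashmiri, LDHA was higher at D90 (log2 ratio 2.42) and D250 (2.31) than at D15. PFKFB4, which encodes a regulator of glycolysis, was lower on the same days (-3.19 and -2.08), and NDRG1 was lower at D90 (-2.60).

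Markers of other cells differed between the same groups. Of 12 neutrophil markers 7 had an entry, with sums of 192, 508 and 627 FPKM for Kashmiri and 4866, 5773 and 13898 FPKM for Jersey, and none was listed at 0. The calprotectin gene S100A8 had from 36.4 to 106 FPKM in Kashmiri and from 1276 to 3034 FPKM in Jersey. Of 10 macrophage markers 9 had an entry, with sums of 102, 455 and 473 FPKM for Kashmiri and 826, 2237 and 2743 FPKM for Jersey, and none was listed at 0. The 14 epithelial markers summed to 6041, 738 and 2695 FPKM for Kashmiri and 2746, 104 and 1434 FPKM for Jersey. The T and NK cell markers, 10 of 10 found, had their highest sum in Kashmiri at D90 (1540 FPKM) and from 98.2 to 391 FPKM elsewhere. The 8 B cell markers summed to between 9.67 and 81.5 FPKM, and the 4 red blood cell markers found of 6 to at most 0.976 FPKM. Of 8 endothelial markers 7 were found, with sums from 3.91 to 5.25 FPKM in Kashmiri and from 14.2 to 23.5 FPKM in Jersey, and CDH5, a defining gene of this cell type, had at most 0.0470 FPKM. The Jersey sum at D250 was nearly all PECAM1 (17.3 FPKM) and VWF (6.05 FPKM), while TIE1 and TEK were lower in Jersey on every day.

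Set beside these sums, the fold of Jersey over Kashmiri at D15 was 2.09 for HIF1A, 2.36 for EGLN3, 3.73 for VEGFA, 4.44 for BNIP3 and 7.78 for DDIT4, against 25.4 for the neutrophil and 8.07 for the macrophage sum. In Jersey from D15 to D90 it was 7.81 for HIF1A, 8.89 for VEGFA, 2.81 for EGLN3, 2.98 for BNIP3 and 2.07 for DDIT4, against 1.19 for the neutrophil, 2.71 for the macrophage and 0.0380 for the epithelial sum. In Jersey from D90 to D250 it was 2.07 for HIF1A, 1.98 for VEGFA, 2.90 for EGLN3, 1.02 for BNIP3 and 3.59 for DDIT4, against 2.41 for the neutrophil, 1.23 for the macrophage and 13.7 for the epithelial sum. The macrophage sum holds an entry that joins ADGRE1 with VAV1 and an unnamed gene (189.9 FPKM in Jersey at D90 but 909 FPKM at D250), and without it the last macrophage fold was 0.896, the opposite direction. Of the 8 macrophage markers considered there, 5 were lower at D250, with a median log2 ratio of -0.29. The neutrophil sum holds 2 joined entries (CSF3R and IL1R2), without which its breed fold at D15 was 37.5.

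**Figure D5:**
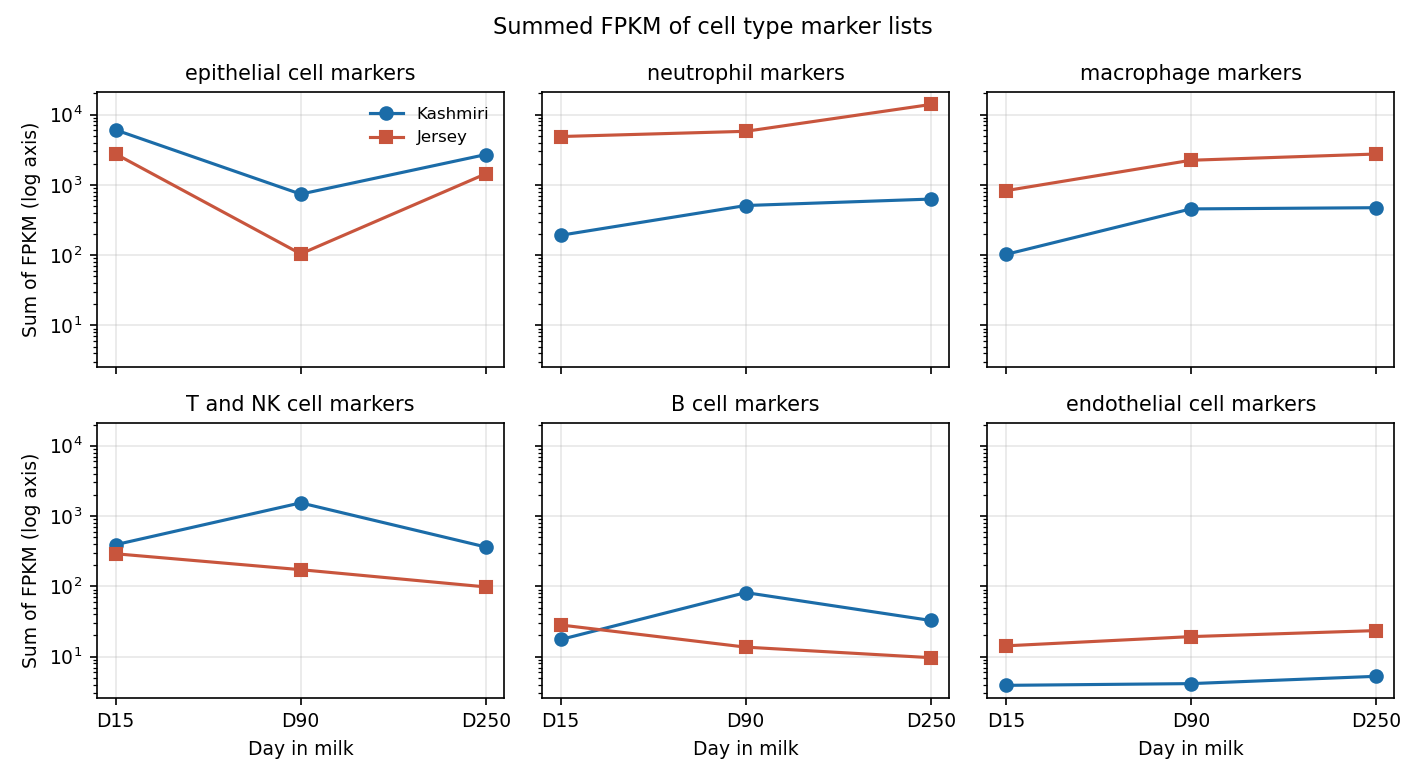
Summed FPKM (log axis) of the entries found for 6 marker lists by day in milk, with circles for Kashmiri and squares for Jersey cattle. The Jersey neutrophil and macrophage sums are above the Kashmiri sums on every day, and the epithelial sum is lowest at D90 in both breeds, with 738 and 104 FPKM.

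The 3 genes with the widest range, VEGFA, DDIT4 and HIF1A, were set beside 6639 names by the Pearson correlation of log2(FPKM + 1) over the 6 groups. These points share the breeds and the libraries behind them, and between 226 and 352 names had a correlation above 0.95 with each gene. The most alike to VEGFA was ENSBTAG00000047561, an entry without a symbol (r = 0.999), whose FPKM was between 1.01 and 1.20 times that of VEGFA in every group. The annotation behind the table was not used here, so whether this entry overlaps or repeats VEGFA is not known, and the value of VEGFA is uncertain to that extent. Next were GPR4, a proton-sensing receptor gene (r = 0.999), with 92.7 FPKM in Jersey at D250, and HOMEZ (r = 0.998). The most alike to DDIT4 were RARA, a retinoic acid receptor gene, ARL14EP and TRIB1, each with r between 0.998 and 0.999. For HIF1A they were RSPRY1 (r = 0.998), SLC25A36 (r = 0.996) and TBC1D23 (r = 0.994).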

How the data were processed

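The authors trimmed the reads, mapped them to UMD3.1 (Bowtie 2, TopHat) and computed FPKM with Cufflinks and Cuffdiff. They also tested stages and breeds for differential expression and the resulting genes for enriched pathways, and those tests are not given here. The deposited table gives 1 FPKM value per group and stage, for Jersey and for Local cattle, taken here as the Kashmiri. The study gives read totals per library, which do not give the reads behind a pooled value of a gene.

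Of 61264 entries, 25121 carried a name. Where several shared a name, the entry with the highest mean was kept, and joined names were searched by their parts. For 9 comparisons, log2 ratios were formed with 1 FPKM added to both values. With no replicates, no test was made. Alternatives were another pseudocount, expression minimum and limit, the sum of repeated entries, and 2 rescalings.

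All 10 genes were named, and per comparison up to 4 genes past the limit from each other pathway list. For the 3 genes of widest range, the 3 best correlated names were given, among names with at least 1 FPKM in all groups and a log2 range of at least 1. The other VEGF receptors and ligands, HIF3A, HIF1AN, CA9 and LOX were named after their values were seen. The members and lists were chosen with earlier results of these data known. An item of the HIF target list is not reported here and enters none of its counts. The code was tested on simulated data. Versions were Python 3.11.15, pandas 2.3.3, numpy 2.4.6; figures used matplotlib 3.10.9.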

Additional observations from a re-analysis of the deposited data

Results flagged for a closer look

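In 4 cases the 2 breeds changed in opposite directions between the same stages and their changes differed by at least 1 on the log2 scale. Each breed has 1 value per stage, so the difference was not tested. For VEGFA between D15 and D90, the Jersey change minus the Kashmiri change was 3.53, with a log2 ratio of 3.12 in Jersey and -0.41 in Kashmiri cattle. For VEGFB between D15 and D250 the difference was -1.97, with -1.52 in Jersey and 0.45 in Kashmiri cattle. Both were opposite under either rescaling as well. For EGLN3 between D90 and D250 the difference was 1.92, with 1.51 in Jersey and -0.41 in Kashmiri cattle. For DDIT4 between D15 and D90 it was 1.21, with 1.05 in Jersey and -0.16 in Kashmiri cattle. The directions of EGLN3 were the same in both breeds with FPKM rescaled to the sum without the milk protein genes, and those of DDIT4 with either rescaling.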

How the results depend on the processing

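No paired analysis was possible because the columns hold 1 value per group, and leaving out replicates was not run for the same reason. With a pseudocount of 0.1 FPKM, with a minimum of 0.01 FPKM, or with repeated entries summed, each of the 9 counts of members past the limit was within 1.5 times of the main count. With a limit of 1 on the log2 scale, the count was 2 (Kashmiri, D15 to D90), 3 (Kashmiri, D15 to D250), 6 (Jersey, D15 to D90), 5 (Jersey, D90 to D250), 7 (Jersey, D15 to D250) and 6 (the breeds at D15). For Kashmiri from D15 to D250 it was 3 with the rescaling to the sum and 2 with that to the upper quartile. Leaving out the joined ARNT entry, an alternative chosen after seeing the data, gave 0 for Kashmiri both from D15 to D90 and from D15 to D250, and a median of 2.24 for Jersey from D15 to D250. The rescaling to the sum gave medians of 0.81 (Kashmiri, D90 to D250), 1.41 (Kashmiri, D15 to D250) and 1.70 (the breeds at D250). It also moved the median of all genes considered, from -0.04 to 0.81 for Kashmiri from D15 to D250 and from -0.10 to -0.75 for the breeds at D250. Of 81 log2 ratios of single members, 21 were past the limit, and 19 of these stayed past it in all 5 alternatives run on them, the exceptions being BNIP3 between the breeds at D15 and D250. Another 4 passed it in some alternative. The sign changed in some alternative for 12 of the 81, the largest of which was 0.41 in size. Leaving joined entries out of the marker sums, also chosen after seeing the data, changed the direction of the macrophage sum for Jersey from D90 to D250 (log2 fold -0.16).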
